A study of Mus musculus with 6 samples.

Results

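The genes described here encode the vesicle coats COPII and COPI, the small GTPases that load them, and the cargo receptors and SNARE proteins of the route between the endoplasmic reticulum (ER) and the Golgi. They were chosen by name, but with earlier results of these data known. All 51 symbols were found, on 52 of the 16736 rows of the deposited count table, since ARF4 stands on 2 rows. Each of the 52 rows passed the filter on low counts, among 13873 rows tested. RNA came from the pituitary gland of male mice labelled RD or HFD, with 3 libraries per group. All mice had been fasted for 16 h and then fed for 4 h, so both groups share the fast and the meal. The labels do not spell out RD and HFD, and they give no strain, age or length of diet. Whether replicates were separate animals is not said either, and the p-values therefore reflect only how these libraries spread, which may be technical. By its title, the study concerns obesity and the unfolded protein response (UPR), the program by which cells react to unfolded protein in the ER.

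Secreted and membrane proteins leave the ER in COPII vesicles. The GTPase SAR1, activated by PREB at exit sites organised by SEC16A, recruits the inner coat of SEC23 and SEC24, which selects cargo, and the outer cage of SEC13 and SEC31. The COPI coat (coatomer), recruited by ARF GTPases on cis-Golgi membranes, carries escaped ER residents and cycling receptors back. Hormone-secreting cells of the anterior pituitary send large amounts of peptide hormone along this route, and parts of the machinery are known targets of the UPR factors XBP1 and ATF6.

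Library totals ranged from 14185372 to 18111345 counts, and the counts of single rows of this gene set ranged from 144 to 11250 per library. The 7 hormone subunit genes, which mark the gland, summed to between 85060 and 95540 CPM (counts scaled to library size, with TMM factors) in RD and between 58320 and 65150 CPM in HFD. Most of the sum was GH1 (means of 67340 CPM in RD, against 38000 CPM in HFD). The calls went both ways: GH1, PRL, LHB and FSHB fell, TSHB and CGA rose, and POMC was not called. TMM factors, which correct for such shifts of composition, were 0.956 to 0.997 in RD and 1.02 to 1.03 in HFD. Summed markers of the other cell types overlapped between the groups, and of the 25 tested 0 were called by edgeR, 0 by DESeq2 and 0 by limma-voom, with 2 at an unadjusted p under 0.05. They were 166 to 275 CPM in RD, against 92.7 to 209 CPM in HFD for pituicytes and posterior lobe (6 genes), 123 to 143 and 121 to 143 for folliculostellate cells (4 genes), 322 to 340.5 and 339.7 to 360 for endothelium (5 genes), and 51.0 to 64.3 and 58.0 to 66.6 for immune cells (5 genes). The red cell gene ALAS2 (60.2 to 93.3 and 49.99 to 110 CPM), cartilage, bone and muscle (6 genes, 9.54 to 11.6 and 10.4 to 13.9 CPM) and brain neurons (4 genes, 34.5 to 54.5 and 45.9 to 50.9 CPM) were low, and no marker was at 0 in all libraries. The posterior lobe markers SCN7A and COL25A1 varied between libraries. SCN7A was at 146, 95.3 and 107 CPM in RD, against 45.7, 109 and 103 CPM in HFD. COL25A1 was at 109, 61.2 and 71.5 CPM in RD, against 39.8, 84.8 and 79.0 CPM in HFD. With 3 libraries per group, the absence of calls does not show equal cell composition. RD replicate 3 stood apart: it held the highest value of all 6 libraries in 34 of the 52 rows of this gene set (65.4%, against 28.0% of all genes). Most rows of the set were lower in HFD, so these shares are not fully alike. Over all genes RD replicate 3 was also the lowest in 25.5%. HFD replicate 1 held the lowest value in 18 of the 52 rows (34.6%, against 15.6% of all genes). In bulk RNA, fewer cells of a type and less RNA per cell cannot be told apart, and the part of the hormone shift in the changes below was not tested.

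Of the 52 rows, 7 fell in HFD and 0 rose by edgeR's quasi-likelihood test at an adjusted p under 0.05. Those that fell were the COPII cage gene SEC31A and the coatomer genes COPB1, COPB2 and COPZ1. The GTPase gene ARF4 (its more abundant row), the ARF regulator gene ARFGAP3 and the retrieval receptor gene KDELR2 fell as well. The changes were small: from RD to HFD the level fell by 18.9% (KDELR2) to 25.3% (ARFGAP3). Called lower were 13.5% of the rows of this gene set, against 4.61% of all tested genes; for calls higher in HFD the share was 5.87% of all genes, and for calls in either direction 10.5%. At an unadjusted p under 0.05, 21 of the 52 rows were lower and 2 higher. Of all 13873 tested genes, 3679 had such a p in either direction. By DESeq2 12 rows were called lower and 0 higher (830 and 893 of 15923 genes in all). By limma-voom 6 were called lower and 0 higher (590 and 816 of 13873 genes). The count of rows called lower rests on the HFD libraries. Without HFD replicate 1, 3 rows were called lower (307 of 14038 genes). Without HFD replicate 2 or 3 it was 1 row (192 of 14015 and 188 of 14001 genes). With the replicate block 4 rows were called lower (335 of 13873 genes). With library size as the only scaling 6 rows were called lower and 1 higher (TMED10). Over all genes it was then 425 and 1121, and the share of calls that were higher went from 56.0% to 72.5%.

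Small negative estimates were spread over most of the set. The log2 change (HFD over RD) was negative for 43 of the 52 rows (82.7%), against 50.4% of all tested genes, and its median was -0.17 against -0.0023 over all tested genes. Values of the groups did not overlap in 24 rows that were lower in HFD (46.2%, against 15.6% of all genes) and in 3 that were higher (5.77%, against 16.9%). The remaining 45 rows were not called, and 8 of them had an adjusted p between 0.05 and 0.10. Since these genes were read in the same 6 libraries, they are not independent of each other. The median moved to -0.10 without RD replicate 3 and to -0.23 without RD replicate 1. Relative to the RD mean, the median row lay at -0.08, -0.01 and 0.10 on the log2 scale in RD replicates 1, 2 and 3, and at -0.17, -0.14 and -0.16 in HFD replicates 1, 2 and 3. The RD libraries thus spread more among themselves than the HFD libraries did: the SD of log2 CPM was larger in RD for 39 of the 52 rows (75.0%, against 60.6% of all genes).

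**Figure D1:**
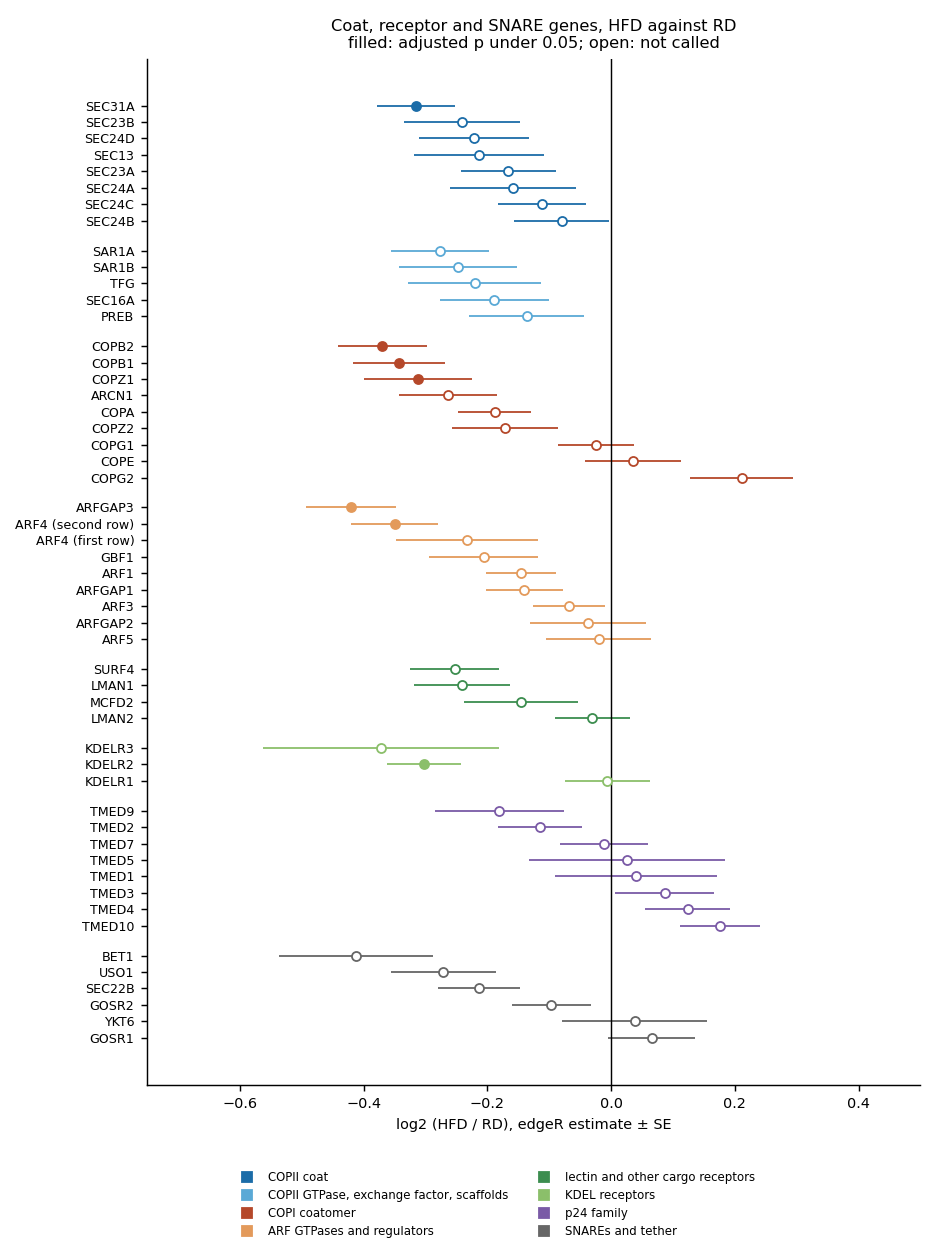
Log2 change (HFD over RD, edgeR estimate ± SE, 3 libraries per group) for each of the 52 rows, sorted within its role; filled points passed an adjusted p of 0.05. The 7 filled points lie between -0.42 and -0.30, and 43 of the 52 points lie left of 0.

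**Figure D2:**
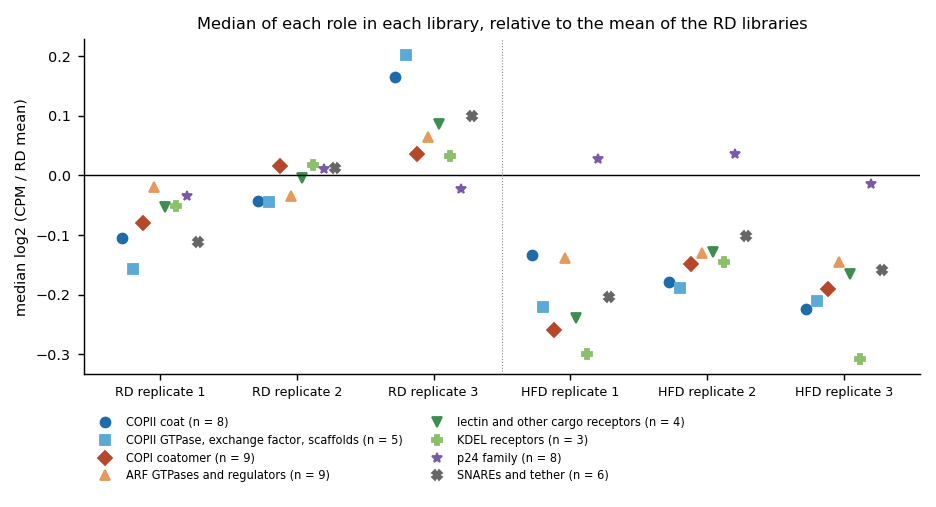
Median over the genes of each role of log2 CPM relative to the RD mean, one symbol per role in each of the 6 libraries. In the HFD libraries the 7 roles other than the p24 family lie between -0.31 and -0.10, and the p24 family between -0.01 and 0.04; RD replicate 3 holds the highest values of the COPII roles.

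In the COPII coat, SEC31A fell and the other 7 subunits were not called, although the estimates of all 8 were negative (median -0.19). SEC31A encodes the rod that, with SEC13, builds the outer cage (mm10, chromosome 5, 100361649 to 100416234). It was at 405, 442 and 455 CPM in the RD libraries and at 356, 345 and 345 CPM in the HFD libraries, so every HFD library lay below every RD library. The log2 change was -0.32 ± 0.06 (SE), with an adjusted p of 0.0139. Leaving out HFD replicate 2 or 3 ended the call (adjusted p = 0.0732 and 0.0721). SEC13, its partner, was at 86.6 ± 13.1 CPM in RD, against 74.7 ± 2.43 CPM in HFD (SD, n = 3 each). Every HFD library of SEC13 lay below every RD library, but the difference of means was smaller than the SD of RD. The inner coat genes SEC23A and SEC23B, the GTPase-activating subunits, had log2 changes of -0.17 ± 0.08 and -0.24 ± 0.09. Among the cargo-binding SEC24 paralogues the estimates ran from -0.22 ± 0.09 for SEC24D to -0.08 ± 0.08 for SEC24B, with SEC24A at -0.16 ± 0.10 and SEC24C at -0.11 ± 0.07.

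None of the 5 genes that start COPII assembly was called by edgeR or limma-voom, while DESeq2 called 1 of them lower. At an unadjusted p under 0.05 edgeR had 2 of them lower and 0 higher, where 3679 of all 13873 genes passed in either direction. SAR1A, the GTPase that starts coat assembly, was nearest, at 250, 263 and 300 CPM in RD, against 232, 228 and 211 CPM in HFD. The groups did not overlap, and the log2 change was -0.28 ± 0.08 (adjusted p = 0.0536). It was called by DESeq2 (adjusted p = 0.0208), with RLE factors (0.0496), with no filter (0.0493), with TMM factors taken without the hormone genes (0.0495) and without RD replicate 1 (0.0299). Its paralogue SAR1B had a log2 change of -0.25 ± 0.10, the exit site organiser TFG of -0.22 ± 0.11, and PREB, the exchange factor for SAR1, of -0.14 ± 0.09. SEC16A, the exit site scaffold, stood at 397, 428 and 514 CPM in RD, against 393, 389 and 392 CPM in HFD. The 3 HFD values were nearly equal, and the distance to RD rests mostly on RD replicate 3. About 21.8% of the exon bases of Preb are shared with Abhd1 on the other strand, and no source used here says whether counting used strand.

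Of the 9 coatomer genes, COPB1, COPB2 and COPZ1 were called lower (33.3%, against 4.61% of all tested genes). COPA, ARCN1 and COPZ2 had negative estimates that missed the threshold, and COPG1, COPE and COPG2 had estimates from -0.02 to 0.21. Apart from the paralogue ratios given below, differences between subunits were not tested. COPB2 (beta prime, which binds dilysine cargo signals; chromosome 9, 98563721 to 98588382) was at 299, 330 and 353 CPM in RD, against 244, 259 and 258 CPM in HFD, a log2 change of -0.37 ± 0.07 (adjusted p = 0.0130). COPB1 (beta, part of the inner layer; chromosome 7, 114215559 to 114254711) was at 206, 212 and 235 CPM in RD, against 181, 173 and 161 CPM in HFD (-0.34 ± 0.07, adjusted p = 0.0191). For both genes the highest HFD library lay well below the lowest RD library. COPZ1 (zeta; chromosome 15, 103272714 to 103299868) went from 109, 119 and 134 CPM to 98.9, 101 and 91.9 CPM (-0.31 ± 0.09), with an adjusted p of 0.0498 just inside the threshold. Without HFD replicates 1, 2 or 3 the call of COPB2 was lost (adjusted p = 0.0565, 0.0566 and 0.0584), that of COPB1 was lost without HFD replicate 2 (0.0793) or 3 (0.0986) and with the replicate block (0.0626), and with 1 library removed at a time that of COPZ1 held only without RD replicate 1, with adjusted p up to 0.190 without the others. COPZ1 also missed the threshold by limma-voom (adjusted p = 0.0553), with upper-quartile factors (0.0566), with library size as the only scaling (0.0801), with the replicate block (0.110) and with the transcript length trend removed (0.0524), so that it was called in 8 of the 18 alternatives.

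COPA, the alpha subunit, was at 655 ± 38.5 CPM in RD, against 575 ± 6.13 CPM in HFD (-0.19 ± 0.06, adjusted p = 0.0749; called without RD replicate 1, adjusted p = 0.0448). ARCN1, the delta subunit, had a log2 change of -0.26 ± 0.08 (adjusted p = 0.0625; called by DESeq2, adjusted p = 0.0279). COPG1, the main gamma subunit, was at 290, 322 and 317 CPM in RD, against 302, 305 and 307 CPM in HFD, with the HFD values inside the RD range. COPE, the epsilon subunit, had a log2 change of 0.04 ± 0.08. The gamma paralogue COPG2 was the subunit with the highest estimate (0.21 ± 0.08, adjusted p = 0.137), at 139, 126 and 134 CPM in RD, against 139, 153 and 170 CPM in HFD. Its gene shares 17.8% of its exon bases with the imprinted gene Mest on the other strand, and MEST, at 463 ± 74.0 CPM in RD, against 543 ± 38.1 CPM in HFD, had a log2 change of 0.23 ± 0.11, so the reads of these genes may not be fully separate. COPZ2, the less abundant zeta paralogue per kilobase of exon, had a log2 change of -0.17 ± 0.09. Per kilobase of exon the RD level of the subunits ran from 69.5 CPM for COPA and 51.6 CPM for COPB2 down to 20.6 CPM for ARCN1, with 14.9 kb of annotated exon, and 17.8 CPM for COPZ2.

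Because XBP1 and ATF6 bind such elements in promoters of ER and Golgi genes, the RefSeq promoters (GRCm38.p6, the assembly of mm10; 250 bases before to 50 after each start) were searched on both strands for the UPR element TGACGTGG and for the ER stress elements ERSE (CCAAT and CCACG, 9 bases apart) and ERSE-II (ATTGG and CCACG, 1 base apart). Promoters were found for 46 of the 51 genes, 53 in all; ARCN1, KDELR2, LMAN1, TMED2 and TMED7 had no entry. The UPR element lay in 8 of the 53 (15.1%), against 0.857% of the 13654 promoters of all genes tested here. It contains the shorter CRE-like core TGACGT, which lay in 34.0% and 10.5%. ERSE and ERSE-II were in 0 of the 53 and in 0.132% and 0.0586% of the promoters of all tested genes. Shown are the stretches that hold the UPR element before or at the RefSeq start site. They are of the called genes Copb1 and Copb2 and of Arf1, Gbf1, Kdelr3 and Sec24d. By the GENCODE gene bounds, only the element of Kdelr3 lies before the gene, and those of the other genes shown lie inside it. The element (or its reverse complement, CCACGTCA) is in capitals, 5′ to 3′ on the strand of the gene.
Copb1 (chr7:114254681-114254728, minus strand): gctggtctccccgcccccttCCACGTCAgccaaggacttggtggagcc
Copb2 (chr9:98563704-98563731, plus strand): agagtcgcttcccggaagttCCACGTCA
Arf1 (chr11:59228219-59228266, minus strand): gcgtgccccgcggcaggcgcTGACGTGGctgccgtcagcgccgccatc
Gbf1 (chr19:46152526-46152557, plus strand): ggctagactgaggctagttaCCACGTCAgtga
Kdelr3 (chr15:79516358-79516405, plus strand): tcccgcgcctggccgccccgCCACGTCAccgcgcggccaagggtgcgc
Sec24d (chr3:123267450-123267495, plus strand): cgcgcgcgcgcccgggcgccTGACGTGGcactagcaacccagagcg

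The same site of Arf1 lies after a second RefSeq start of that gene, which makes the count of promoters 8 for 7 genes. In Sec23a the element lies after the RefSeq start. The 7 genes with the element had log2 changes between -0.37 and -0.15 with a median of -0.22, and 2 of them were called lower. The 40 rows with a promoter but without the element ranged from -0.42 to 0.21 with a median of -0.14, and 4 were called. A match of letters is not a measured binding site, and the difference between these sets was not tested.

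Among the ARF GTPases and their regulators, ARFGAP3 and ARF4 fell, and the other 7 rows were not called. ARFGAP3, which stimulates GTP hydrolysis by ARF1 on Golgi membranes (chromosome 15, 83299739 to 83350247), was at 101, 112 and 111 CPM in RD, against 78.0, 82.9 and 81.0 CPM in HFD. No HFD library came near the RD range, and the log2 change of -0.42 ± 0.07 (adjusted p = 0.00803) was the largest fall of the set. No other row of the set kept its call whichever of the 6 libraries was removed (ARFGAP3 adjusted p up to 0.0459). Its paralogues ARFGAP1 and ARFGAP2 were at -0.14 ± 0.06 and -0.04 ± 0.09. Of the exon bases of ARFGAP2, 33.4% are shared with 1110051M20Rik on the other strand. ARF4, a Golgi ARF whose mouse gene is annotated on chromosome 14 (26638074 to 26665084), stood on 2 rows. The annotated gene shares 14.6% of its exon bases with Pde12 on the other strand. The more abundant row went from 150, 149 and 168 CPM in RD to 121, 126 and 120 CPM in HFD (-0.35 ± 0.07, adjusted p = 0.0141). The other row went from 33.3 ± 3.88 to 28.4 ± 2.63 CPM (-0.23 ± 0.11, adjusted p = 0.232). The table does not say which locus each row stands for, and either may count another ARF gene, so the fall is that of a row named ARF4 and no level per length was computed for ARF4. The abundant row missed the threshold without HFD replicate 1, 2 or 3 (adjusted p = 0.0552, 0.0550 and 0.0721).

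ARF1, which recruits coatomer and was the most abundant gene of the set per kilobase of exon (131 CPM per kb in RD), was at 269, 272 and 277 CPM in RD, against 253, 239 and 248 CPM in HFD. The groups did not overlap, but with a log2 change of -0.15 ± 0.06 it was not called (adjusted p = 0.137). ARF3, nearly identical to ARF1 in protein sequence, was at -0.07 ± 0.06 and ARF5 at -0.02 ± 0.08. ARF5 shares 16.4% of its exon bases with Gcc1 on the other strand. GBF1, the exchange factor that activates ARFs at the cis-Golgi, went from 258 ± 31.9 to 224 ± 9.37 CPM (-0.21 ± 0.09, adjusted p = 0.167).

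**Figure D3:**
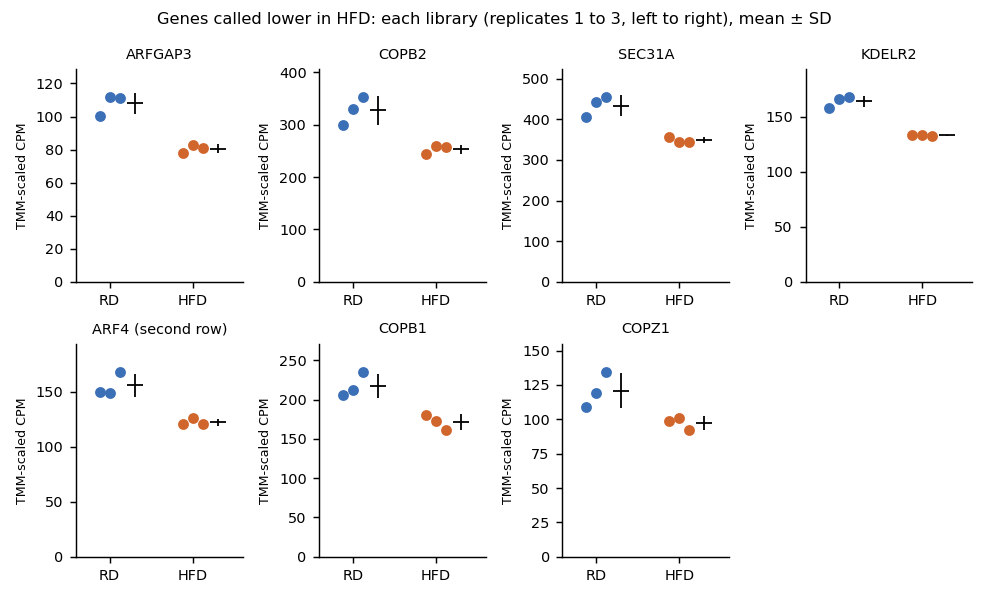
TMM-scaled CPM of the 7 rows called lower in HFD, one panel each with the axis from 0; points are libraries (RD blue, HFD orange, replicates 1 to 3 from left to right) and the bar beside them is the mean ± SD. In every panel the 3 HFD points lie below the 3 RD points, and the groups do not overlap.

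The KDEL receptors catch ER chaperones that have escaped to the Golgi and return them in COPI vesicles. Of the 3 paralogues only KDELR2 was called. KDELR2 (chromosome 5, 143403838 to 143421901) was at 158, 166 and 168 CPM in RD, against 133, 134 and 132 CPM in HFD (-0.30 ± 0.06, adjusted p = 0.0139). The SD within HFD was 0.738 CPM, and the groups were well apart. KDELR1 was at 106, 96.5 and 104 CPM in RD, against 101, 104 and 101 CPM in HFD, with a log2 change of -0.01 ± 0.07 (adjusted p = 0.970) whose sign depended on the scaling. KDELR3, at 11.8, 17.6 and 17.9 CPM in RD, against 9.99, 13.99 and 12.5 CPM in HFD, had an estimate as large as that of KDELR2 but a wide spread (-0.37 ± 0.19, adjusted p = 0.247). Within each library, the log2 ratio of KDELR1 to KDELR2 per kilobase of exon was -0.61, -0.82 and -0.72 in RD and -0.44, -0.39 and -0.42 in HFD. KDELR2 was thus the more abundant in all 6 libraries, by less in HFD, where the KDELR1 level was 0.749 of the KDELR2 level against 0.609 in RD. An exact two-sided permutation test gave p = 0.10, the smallest that 3 against 3 libraries allow (adjusted p = 0.367 over 11 paralogue pairs). KDELR2 missed the threshold without HFD replicate 1, 2 or 3 (adjusted p = 0.0510, 0.0652 and 0.0688) and with the replicate block (0.0537).

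Of the other cargo receptors, 0 of 4 were called by edgeR or limma-voom and 1 by DESeq2. By edgeR 2 were lower at an unadjusted p under 0.05, where 3679 of all 13873 genes passed in either direction. SURF4, a receptor that exports soluble secretory proteins, was at 213, 231 and 249 CPM in RD, against 186, 199 and 197 CPM in HFD. The groups did not overlap, and the log2 change was -0.25 ± 0.07 (adjusted p = 0.0521), just outside the threshold. It passed with DESeq2 (adjusted p = 0.0261), RLE factors (0.0478), TMM factors without the hormone genes (0.04997), the GC content trend removed (0.0360), the transcript length trend removed (0.0445) or without RD replicate 1 (0.0265). LMAN1, the mannose lectin that works as a pair with MCFD2, was at 180, 186 and 192 CPM in RD, against 143, 172 and 157 CPM in HFD (-0.24 ± 0.08, adjusted p = 0.0786). MCFD2 was at -0.14 ± 0.09 and the lectin LMAN2 at -0.03 ± 0.06. The log2 ratio of LMAN1 to LMAN2 per kilobase was -0.09, -0.08 and -0.11 in RD and -0.43, -0.16 and -0.32 in HFD, without overlap (exact permutation p = 0.10, adjusted p = 0.367).

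The p24 proteins (TMED family) cycle between ER and Golgi as hetero-oligomers, carry signals for both coats and sort GPI-anchored and other cargo. Unlike in the coats, 5 of the 8 had positive estimates, and the median was 0.03. Calls numbered 0 by edgeR, DESeq2 or limma-voom. For comparison, edgeR called 10.5% of all tested genes in either direction, and 1 of the 8 COPII coat genes. By edgeR 1 was higher at an unadjusted p under 0.05, where 3679 of all 13873 genes passed in either direction. The difference between the p24 family and the coats was not tested. TMED10 (p23) was at 269, 273 and 255 CPM in RD, against 282, 315 and 303 CPM in HFD. All HFD values exceeded all RD values, with a log2 change of 0.18 ± 0.06 (adjusted p = 0.116; called with library size as the only scaling, adjusted p = 0.0486). Its partner TMED2 (p24 beta) was at 121, 131 and 131 CPM in RD, against 123, 116 and 115 CPM in HFD (-0.11 ± 0.07). TMED4 was the other p24 gene without overlap, at 107, 121 and 112 CPM in RD, against 125, 124 and 122 CPM in HFD (0.12 ± 0.07, adjusted p = 0.285). TMED9 had the lowest estimate (-0.18 ± 0.10), TMED7 and TMED3 stood at -0.01 ± 0.07 and 0.09 ± 0.08, and the less abundant TMED5 and TMED1 at 0.03 ± 0.16 and 0.04 ± 0.13. Of TMED7's exon bases 9.48% are shared with Ticam2 on the same strand, and of TMED1's 13.6% with Dnm2 on the other.

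**Figure D4:**
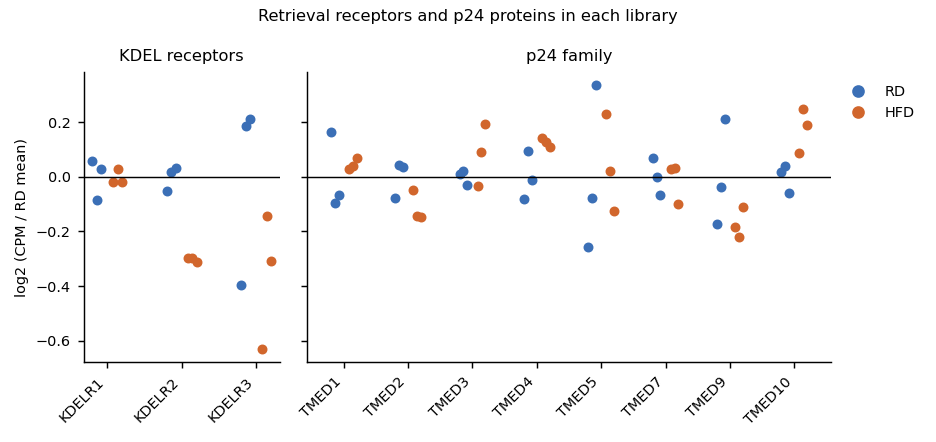
Log2 CPM relative to the RD mean of each gene, for the 3 KDEL receptors and the 8 p24 genes; each point is a library (RD blue, HFD orange, replicates 1 to 3 from left to right). KDELR2 in HFD forms a tight cluster near -0.30, the HFD points of KDELR1 lie near 0, and the HFD points of TMED10 and TMED4 lie above all RD points.

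Of the 5 SNAREs and the tether USO1, 0 were called by edgeR or limma-voom and 2 by DESeq2. By edgeR 3 were lower at an unadjusted p under 0.05, where 3679 of all 13873 genes passed in either direction. BET1, a SNARE of ER-derived vesicles, was at 36.0, 45.1 and 50.7 CPM in RD, against 35.2, 32.3 and 31.5 CPM in HFD. The lowest RD library, replicate 1, lay just above the HFD values, and the log2 change was -0.41 ± 0.12 (adjusted p = 0.0639; 0.0126 without RD replicate 1 and 0.0277 by DESeq2). USO1 (p115), which tethers vesicles at the cis-Golgi, was at 194, 213 and 241 CPM in RD, against 169, 189 and 179 CPM in HFD (-0.27 ± 0.09, adjusted p = 0.0729; 0.0289 without RD replicate 1 and 0.0364 by DESeq2). SEC22B, which pairs with BET1 in fusion at the Golgi, had a log2 change of -0.21 ± 0.07 (adjusted p = 0.0713). The Golgi SNAREs GOSR1, GOSR2 and YKT6 were at 0.07 ± 0.07, -0.10 ± 0.06 and 0.04 ± 0.12. Per kilobase the log2 ratio of GOSR1 to GOSR2 was -1.26, -1.35 and -1.30 in RD and -1.15, -1.18 and -1.10 in HFD (exact permutation p = 0.10, adjusted p = 0.367). In the remaining 8 of the 11 pairs, among them SEC23A with SEC23B, SAR1A with SAR1B and COPG1 with COPG2, the exact p ranged from 0.20 to 0.80.

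In a wider list of the early secretory pathway, 100 genes outside this set were tested. Of these, 9 fell and 2 rose, where 4.61% and 5.87% of all tested genes did so. Estimates were negative for 79 of the 100, against 50.4% of all tested genes, and the median log2 change was -0.12. LMAN2L, a lectin related to LMAN2, fell from 81.1 ± 4.57 to 56.6 ± 3.498 CPM (-0.52 ± 0.08, adjusted p = 0.00569), and SEC16B, the shorter SEC16 paralogue, from 83.5 ± 11.3 to 58.1 ± 4.14 CPM (-0.52 ± 0.11). ARFGEF1, an exchange factor for ARFs at the trans-Golgi, fell by 0.33 on the log2 scale, the cycling membrane protein gene ERGIC1 by 0.33, and NBAS, a subunit of the tether that receives COPI vesicles at the ER, by 0.34. The golgin gene GOLGA4 (-0.39 ± 0.07) and COG6 (-0.32 ± 0.07), of the COG tether for retrograde vesicles, fell as well. COG7, of the same tether, rose (0.45 ± 0.10). TRAPPC6A rose as well (0.66 ± 0.18), at a low level, from 5.12 ± 0.685 to 8.085 ± 0.474 CPM. TRIP11 (-0.31 ± 0.08) and BCAP31 (-0.26 ± 0.07) fell. TRAPPC6A, TRIP11 and BCAP31 were named after their values were seen. CREB3L2, a transcription factor known to drive SEC23A, was not called (RD 623 ± 127 CPM, HFD 506 ± 28.5 CPM; adjusted p = 0.146, and 0.0461 without RD replicate 1). Without HFD replicate 1, 2 or 3 the number that fell was 5, 2 and 2 and the number that rose 0. LMAN2L and ARFGEF1 kept their calls whichever library was removed, and each of the other called genes named here lost its call without HFD replicate 2 and without HFD replicate 3. TRAPPC6A lost its call whichever library was removed. BCAP31 also lost its call with upper-quartile factors, with library size as the only scaling and with no filter.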

How the data were processed

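Per the labels' protocols, pituitary RNA was purified with an RNeasy kit and polyadenylated RNA was selected on oligo-dT. The authors deposited a table of raw read counts per gene symbol for 6 libraries. The build was mm10, per the submitters' processing notes; the sources used here name no aligner, counting tool, annotation or strand setting. Of counts from 1 to 10, 64.0% to 67.0% were even, against 48.9% to 50.4% above 200, whose cause was not tested, and no counting intervals are given.

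The main test was that of edgeR 4.0.16 under R 4.3.3 (quasi-likelihood, two-sided, TMM, minimum count 10, minimum total 15, group as the only term) over all rows, adjusted by Benjamini-Hochberg; a gene under 0.05 is "called". The fit was tested on simulated data, whose setting and outcome are not given here. Levels are TMM-scaled CPM, mean ± SD, n = 3; the SE is the log2 change over the square root of F. Lengths, loci and exon overlaps come from GENCODE M21 (exon union), promoters from RefSeq. Alternatives were DESeq2 1.42.0, voom of limma 3.58.1, other scalings, filters and thresholds, halved counts, a replicate block and each library left out; removal of GC content and length trends (loess, span 0.4) was chosen after seeing the data. ARF4 to ARF5 ratios were not computed, ARF4 having 2 rows.

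The genes and lists were chosen with earlier results of these data known. Values per library are given for called genes, for the gene with the smallest p in each role without a call, for the KDEL receptors and for others where a sentence turns on them. Of the wider list, the plan was to name the 8 called genes with the smallest p and CREB3L2. The other called genes, TRAPPC6A, TRIP11 and BCAP31, were added after their values were seen. All are given by group mean or log2 change. Near-identical copies may share reads.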

Additional observations from a re-analysis of the deposited data

How the results depend on the processing

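Over all genes, 814 were called higher and 639 lower; these were 473 and 335 with the replicate block, 228 and 184 at a threshold of 0.01, 1276 and 1067 at 0.10, and 243 to 813 and 188 to 710 with a library left out, and with no scaling but library size 425 were lower. Of the 52 rows, the 7 called lower became 12 by DESeq2, 4 with the block, 1 at 0.01, 15 at 0.10, and 1 to 12 with a library left out (12 when RD replicate 1 was removed, 3 for HFD replicate 1, and 1 for HFD replicate 2 or 3); 1 was called higher with library size only, and 0 with any library left out. Of the wider list, 2 higher became 1 with the block or the GC content trend removed, 0 at 0.01, and 0 to 1 with a library left out; 9 lower became 2 at 0.01, 18 at 0.10, and 2 to 11 with a library left out. The median log2 change of the 52 rows stayed between -0.23 and -0.10 in the settings tried. Deviations of same-numbered libraries from their group means correlated at -0.127, 0.00371 and -0.0972. RD replicates 1 and 3 correlated least with the HFD library of their own number. With 3 libraries per group this cannot exclude pairing by replicate number. Estimates near 0 changed sign, with no call: with upper-quartile factors COPG1 (0.0077), ARF5 (0.010), LMAN2 (0.0016), KDELR1 (0.025) and TMED7 (0.019), with library size only COPG1 (0.044), ARF5 (0.047), ARFGAP2 (0.031), LMAN2 (0.038), KDELR1 (0.061) and TMED7 (0.055), with the GC content trend removed TMED7 (0.021), and with a library left out COPE (-0.021 to 0.070), ARF5 (-0.074 to 0.038), ARFGAP2 (-0.101 to 0.0078), KDELR1 (-0.053 to 0.013), TMED1 (-0.013 to 0.117), TMED5 (-0.106 to 0.208), TMED7 (-0.050 to 0.030) and YKT6 (-0.059 to 0.178). The causes were not tested. With 3 libraries per group, 45 of the 52 rows were not called, which does not show that they did not differ.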
